A study of Mus musculus with 15 samples.

Results

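Genomic imprinting was followed here in the RNA of the developing mouse stomach, through 36 genes known to be expressed from 1 parental copy. The genes were taken by symbol from a list of known mouse imprinted genes, by a rule that uses no measured value, and all 36 of the 36 were present among the 44788 gene symbols of the files. They lie in 15 loci and comprise 20 paternally expressed genes, 15 maternally expressed genes and Gnas, whose transcripts differ in parental origin. These parental assignments are textbook knowledge for the locus. The files carry no allelic information, and several of the genes are known to be imprinted only in certain tissues, so parental origin was not measured.

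Whole stomachs of C57BL/6 mice, an inbred laboratory strain without transgene or treatment, were sequenced at 15 timepoints, with 1 transcriptome per timepoint. The timepoints were grouped by age into fetal (daily from E12.5 to E18.5, n = 7), early postnatal (D1, D3, D5, W1 and W2, n = 5) and late postnatal, after weaning (W3, W6 and W8, n = 3). Here E stands for embryonic day, and D and W for days and weeks after birth. Young animals were taken without regard to sex, and those after weaning were male, so sex and age cannot be told apart in the late postnatal group. According to the study's reporting summary, a replicate held the combined stomachs of several embryos up to E17.5 and a single stomach after E18.5. It does not say whether this holds for the RNA. Values are FPKM, in which fragment numbers are divided by transcript length and by the mapped total, so that levels can be compared between genes.

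Imprinted genes are marked by DNA methylation in the egg or sperm, and the mark, kept through early development at imprinting control regions, silences 1 parental copy. Many of them act on fetal growth. Paternally expressed genes such as Igf2 tend to promote it and maternally expressed genes such as Cdkn1c, Grb10 and Igf2r tend to restrain it, and the family is known for strong expression in fetal mesodermal tissues and decline after birth.

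No timepoint was repeated, so the timepoints of an age group served as its replicates, and p-values measure the distance between age groups against the spread between timepoints, which includes change with age. The methods of the study name liver as the source of the RNA, whereas the labels name stomach. The summed FPKM of 8 gastric gland markers (Atp4a, Atp4b, Pgc, Gif, Muc5ac, Muc6, Tff1 and Gkn1) ranged from 338 to 5951 in the fetal transcriptomes, from 10110 to 61478 in the early postnatal and from 188627 to 273178 in the late postnatal ones. The summed FPKM of 6 liver markers ranged from 32.2 to 249.5 (fetal), 259 to 1227 (early) and 1471 to 2397 (late). D1 stood apart in several of them. Albumin (Alb) had an FPKM of 461 at D1, at most 14.6 in the fetal transcriptomes, 25.8, 3.08, 15.9 and 1.81 from D3 to W2, and 65.4, 0.869 and 0.672 in the late ones. Afp (186), Fgb (57.4) and Serpina1a (19.7) were also highest at D1. The part of liver RNA in the D1 values was not tested. The number of fragments was not stated, and 1 fragment in an entry corresponded to a median of 0.0415 (W6) to 0.0679 (E16.5) FPKM. The sum of FPKM over all genes was lowest at E14.5 (745538) and highest at W6 (1344960). Median-ratio factors, which bring the typical gene of each transcriptome to the same level, were highest at E14.5 (1.27) and lowest at W6 (0.577).

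Dlk1, Meg3, Rian and Rtl1 each had a second entry on another scaffold of the assembly with nearly the same value, so their summed FPKM counts both entries (the chromosomal entry held 50% to 50.4% of the sum). Igf2r (91.9% to 97.9%) and Airn (56.4% to 91.6%) also had a second entry. The sum is higher than the chromosomal entry alone. Whether the same fragments were counted in both entries or divided between them is not known, so the levels of these genes may be too high. For the first 4, whose entries kept the same proportion, summing touches the differences between timepoints only through the pseudocount.

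Several of the genes host regulatory RNAs or have promoters with a sequence known in imprinting, and these are shown because the host genes were among those that changed most. H19 is the precursor of miR-675, Igf2 hosts miR-483 and Mest hosts miR-335. The mature sequences, from the RefSeq annotation of GRCm38.p6, all lie inside the host gene's entry. They are given 5′ to 3′, and capitals mark the seed, bases 2 to 8, which pairs with target RNAs.
miR-675-5p: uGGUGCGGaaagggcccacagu
miR-675-3p: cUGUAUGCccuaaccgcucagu
miR-483-5p: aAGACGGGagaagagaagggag
miR-483-3p: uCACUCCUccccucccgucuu
miR-335-5p: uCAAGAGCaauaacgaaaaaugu
miR-335-3p: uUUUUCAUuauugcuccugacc
The miR-675 arms lie at chr7:142577112-142577133 (5p) and chr7:142577078-142577099 (3p) on the minus strand, the miR-483 arms at chr7:142654968-142654989 (5p) and chr7:142654932-142654952 (3p) on the minus strand, and the miR-335 arms at chr6:30741314-30741336 (5p) and chr6:30741354-30741375 (3p) on the plus strand. No 2 of the 6 seeds are the same. The separate hairpin entries for these 3 miRNAs were listed at 0 at all timepoints, as were all 55 hairpin entries between Meg3 and Mirg, so only the host transcripts can be followed in these poly(A)-selected libraries.

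The hexamer TGCCGC is the sequence bound, when methylated, by ZFP57, a zinc-finger protein that keeps imprints. RefSeq start windows of 300 bases (250 before and 50 after the start, GRCm38.p6) were at hand for 29 of the 36 genes (44 windows), and not for H19, Rtl1, Cdkn1c, Peg10, Sgce, Impact and Peg13. TGCCGC, on either strand, occurred in 9 of the 44 windows (20.5%), against 11.6% of all 32851 windows of the same length. It occurred in 6 of 23 windows of paternally expressed genes (26.1%) and in 3 of 17 of maternally expressed genes (17.6%). By gene, 8 of the 29 held it (27.6%), against 13.1% of all genes. The median number of CpG dinucleotides per window was 13 for the imprinted genes and 7 for all windows. The 250 bases before the start are printed for 2 paternally expressed genes (Mest, Plagl1) and 2 maternally expressed genes (Zim1, Meg3) that hold the hexamer in this stretch, in the direction of transcription, with the hexamer in capitals. In these 4 it reads GCGGCA, its complement on the printed strand.
Mest (chr6:30737800-30738049, plus strand): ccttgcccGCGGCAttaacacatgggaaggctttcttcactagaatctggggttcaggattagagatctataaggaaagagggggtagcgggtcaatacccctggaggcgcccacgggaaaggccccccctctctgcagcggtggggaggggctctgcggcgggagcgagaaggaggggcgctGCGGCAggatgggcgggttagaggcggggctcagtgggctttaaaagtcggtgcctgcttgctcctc
Plagl1 (chr10:13090582-13090831, plus strand): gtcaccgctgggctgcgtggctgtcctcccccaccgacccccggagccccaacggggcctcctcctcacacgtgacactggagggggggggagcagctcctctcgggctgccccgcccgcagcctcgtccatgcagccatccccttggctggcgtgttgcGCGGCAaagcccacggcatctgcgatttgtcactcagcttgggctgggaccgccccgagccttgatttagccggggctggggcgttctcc
Zim1 (chr7:6696433-6696682, minus strand): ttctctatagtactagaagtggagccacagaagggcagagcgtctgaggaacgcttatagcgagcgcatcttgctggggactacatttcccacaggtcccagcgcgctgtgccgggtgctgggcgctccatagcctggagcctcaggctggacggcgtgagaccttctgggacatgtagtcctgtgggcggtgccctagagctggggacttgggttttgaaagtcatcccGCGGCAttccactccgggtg
Meg3 (chr12:109540746-109540995, plus strand): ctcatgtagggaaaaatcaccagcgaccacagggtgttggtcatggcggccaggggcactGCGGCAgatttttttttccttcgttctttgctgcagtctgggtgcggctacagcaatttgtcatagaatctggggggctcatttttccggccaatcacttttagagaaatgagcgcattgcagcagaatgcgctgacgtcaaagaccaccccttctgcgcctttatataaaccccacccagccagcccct
The Mest stretch holds the hexamer 2 times and the other 3 hold it 1 time each. A match describes these letters only. Binding and methylation were not measured.

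The summed FPKM of the imprinted genes declined from E14.5 to W6. It was 1.22% of that of all genes at E14.5, 0.471% at D1 and 0.0566% at W6. A few high genes made up much of it. Of 9071 at E14.5, H19 had 3397, Gnas 1417 and Igf2 1081, and of 761 at W6, Gnas had 478. The sum over all genes also grew with the gastric gland markers, which held 273178 of 1344960 at W6. The highest value fell before birth for 32 of the 36 genes, of which 16 were highest at E12.5, and after birth for 4 maternally expressed genes, Phlda2, H13, Ascl2 and Slc22a18. An FPKM of at least 1 was reached by 34 of the 36 at E15.5 and E16.5, by 31 at D1 and by 21 at W6. No share over all genes was computed for these counts, and genes in general also shifted downward with age. H19 was the highest of the genes from E12.5 to D1, and Gnas from D3 on.

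**Figure D1:**
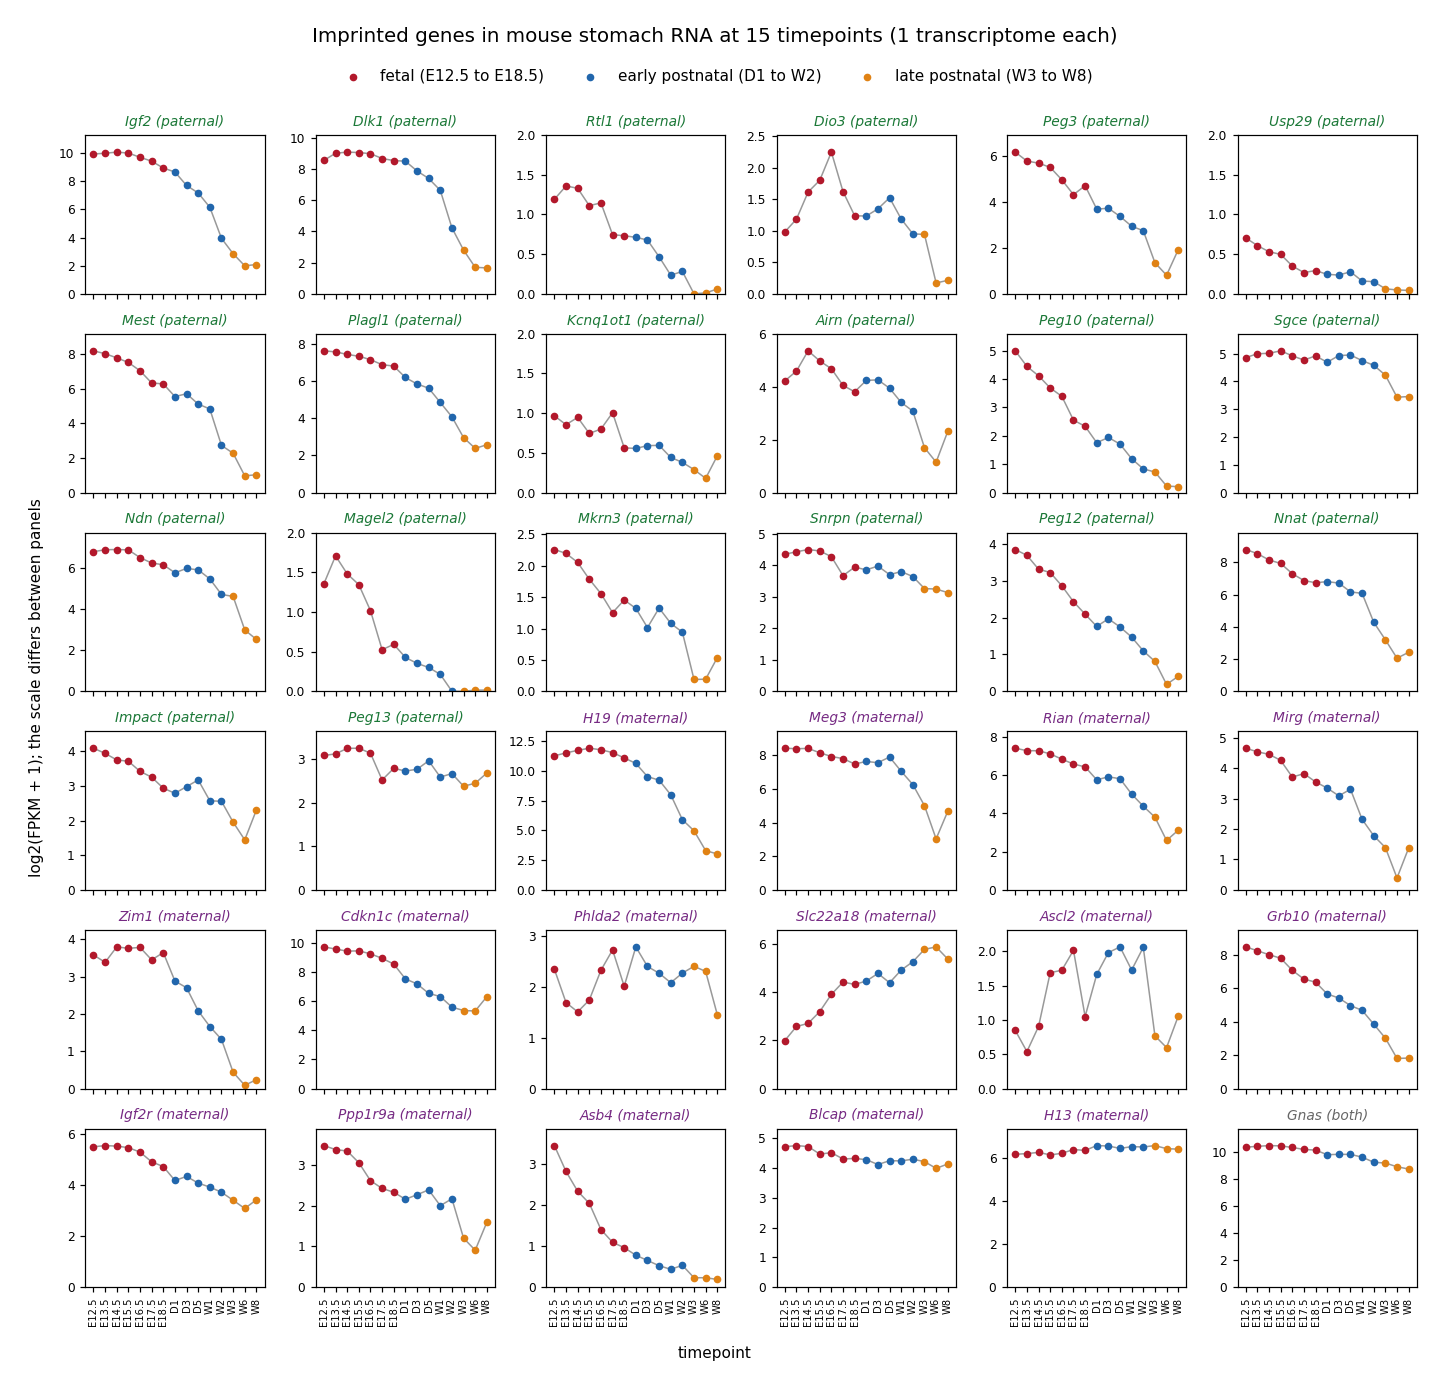
Level of each of the 36 imprinted genes as log2(FPKM + 1) on a linear axis (the scale differs between panels) at the 15 timepoints, with 1 point per transcriptome, coloured by age group, and titles coloured by parental expression. Igf2, H19, Dlk1 and Mest descend steeply after birth, Slc22a18 climbs, and H13, Blcap and Sgce change little over most timepoints.

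Genes were tested with limma on log2(FPKM + 1), with Benjamini-Hochberg adjustment over all 16902 genes that reached an FPKM of 1, and a threshold of 0.01. Of the 36 genes, 35 were tested, and Usp29, a ubiquitin protease-like gene with a maximal FPKM of 0.630, was not. Across the 3 age groups, 33 of the 35 differed (18 of 19 paternally expressed, 14 of 15 maternally expressed, and Gnas), against 67.9% of all genes tested. Phlda2 and Peg13 did not pass.

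From fetal to early postnatal timepoints, 23 of the 35 fell (13 paternally expressed, 9 maternally expressed, and Gnas), against 30.6% of all genes, and 2 maternally expressed genes rose, Slc22a18 and H13, against 10.8%. The other 10 did not pass the test. Among those that fell, Rtl1, Magel2, Kcnq1ot1 and Asb4 reached the FPKM of 1 needed for testing only before birth. Their highest early postnatal values were 0.638, 0.344, 0.510 and 0.716. The filter thus favours falls among such genes, and their calls are weak support for a decline. Without the filter 20 of the 25 calls held, while the share called over all genes went from 41.4% to 22.5%. The median difference was -0.89 over the 35 (log2 scale), -0.89 over the paternally expressed and -1.23 over the maternally expressed genes, and -0.22 over all genes. From early to late postnatal timepoints, 21 fell (11 paternally expressed, 9 maternally expressed, and Gnas), against 28.9% of all genes. With limma none of the 35 rose (0), against 2.57%. At an unadjusted p under 0.05, 27 of the 35 differed, against 9910 of all 16902 genes. The difference was below 0 for 34 of the 35 and for 13714 of all genes. The median difference was -1.08 for the 35 and -0.42 for all genes. In 20 of the 35 every early postnatal value lay below every fetal value, against 20.9% of all genes, and in 27 every late value lay below every early value, against 46.5%. Below, a difference across birth or across weaning is one between the means of these age groups. It includes change with age inside each group, such as decline before birth.

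All genes shifted downward too. With median-ratio scaling, which sets the median difference of all genes to 0.01 and -0.03 in the 2 comparisons, 17 of the 35 fell and 3 rose (Slc22a18, H13 and Ascl2) from fetal to early postnatal timepoints, and 15 fell and 2 rose (Blcap and H13) from early to late ones. The median difference of the 35 was then -0.74 and -0.71. Over all genes the same scaling turned 5170 lower and 1820 higher genes into 2470 lower and 2966 higher, and 4877 lower and 435 higher into 1343 lower and 2055 higher. Leaving out W1 reduced the 25 genes called between fetal and early postnatal timepoints to 16, while the share called over all genes went from 41.4% to 30.2%. The calls of Dlk1, Nnat, Impact, Mkrn3, Kcnq1ot1, Asb4, Ppp1r9a, Slc22a18 and H13 did not hold without it, with adjusted p between 0.0111 and 0.022. Leaving out W6 reduced the 21 genes called between early and late timepoints to 12, while the share over all genes went from 31.4% to 9.15%. Without it the calls of Peg3, Impact, Mkrn3, Mirg, Grb10, Igf2r, Ppp1r9a, Ascl2 and Gnas did not hold, with adjusted p between 0.0111 and 0.0716. Without D1, where several liver markers were high, 21 of the 35 were called between fetal and early postnatal timepoints in place of 25, and 17 between early and late ones in place of 21. Over all genes the shares without D1 were 36.5% and 24.2%. The differences of Igf2, H19 and Dlk1 across birth were then -3.49, -3.39 and -2.31 (limma, adjusted p = 0.000449, 0.000638 and 0.00279).

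**Figure D2:**
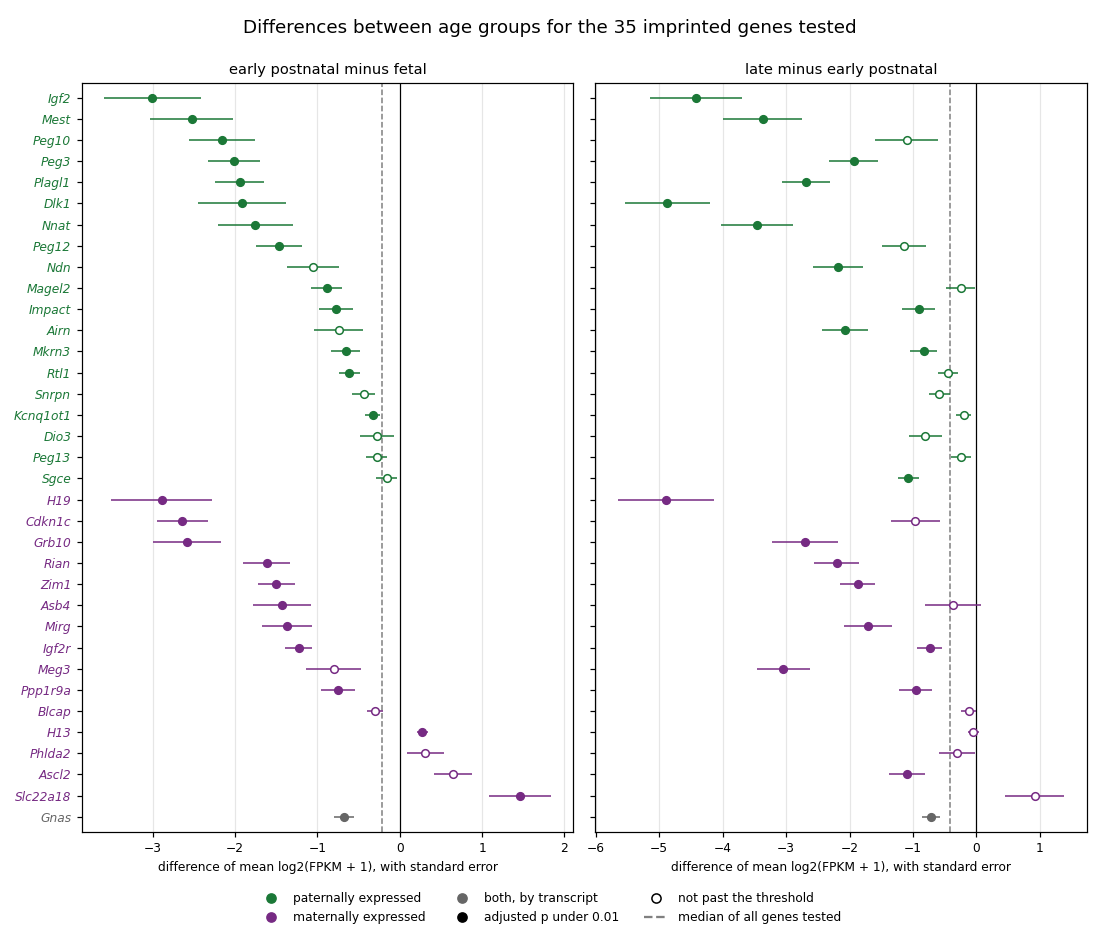
Difference of mean log2(FPKM + 1) between age groups for each of the 35 genes tested, with its standard error from limma, for early postnatal minus fetal (left) and late minus early postnatal (right). Filled points passed an adjusted p of 0.01, and the dashed line is the median of all genes (-0.22 and -0.42). Most points lie left of that line, and Slc22a18 lies right of 0 in both panels.

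Much of the decline took place before birth. The slope over the 7 fetal timepoints fell with age for 18 of the 35 genes (9 paternally and 9 maternally expressed), against 25% of all genes, and rose for 1, Slc22a18, against 14.3%. The steepest falling slopes on the log2(FPKM + 1) scale were those of Peg10 (-0.45 ± 0.02 per day, SE, adjusted p = 0.000158) and Asb4 (-0.42 ± 0.03, adjusted p = 0.000206). Grb10 (-0.38 ± 0.03, adjusted p = 0.000297), Nnat (-0.37 ± 0.02, adjusted p = 0.000192) and Mest (-0.35 ± 0.03, adjusted p = 0.00035) followed. In contrast, H19, Dlk1, Zim1 and Sgce had fetal slopes between -0.03 and 0.01, none past the threshold. For H19 and Dlk1 this slope joins a rise and a fall. H19 went from 2469 (E12.5) to 3854 (E15.5) and 2189 (E18.5). The summed FPKM of Dlk1 went from 374 (E12.5) to 540 (E14.5) and 371 (E18.5). The falling calls of Blcap, Igf2r, Magel2 and Peg3 were lost when single fetal timepoints were left out, with adjusted p up to 0.0441. With median-ratio scaling the falling slopes of Blcap and Magel2 missed the threshold (adjusted p = 0.0442 and 0.01002).

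In 16 of the 36 genes FPKM dropped below 50% of the highest value, and stayed there, before birth. The first was Asb4 (from E14.5), then Peg10 (from E15.5), and 7 genes followed from E16.5 (Peg3, Usp29, Mest, Magel2, Peg12, Nnat and Grb10). Another 12 crossed this level between D1 and W2, among them H19 (from D1), Dlk1 (from D3) and Meg3 (from W1), and 4 from W3 on. Slc22a18, Blcap, Peg13 and H13 did not stay below 50% of their highest value at any timepoint after it. For this measure, too, no share over all genes was computed. At D1 the median gene stood at 37.2% of its highest value among the paternally expressed and 37.8% among the maternally expressed genes. At W8 the medians were 3.97% and 9.26%.

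**Figure D3:**
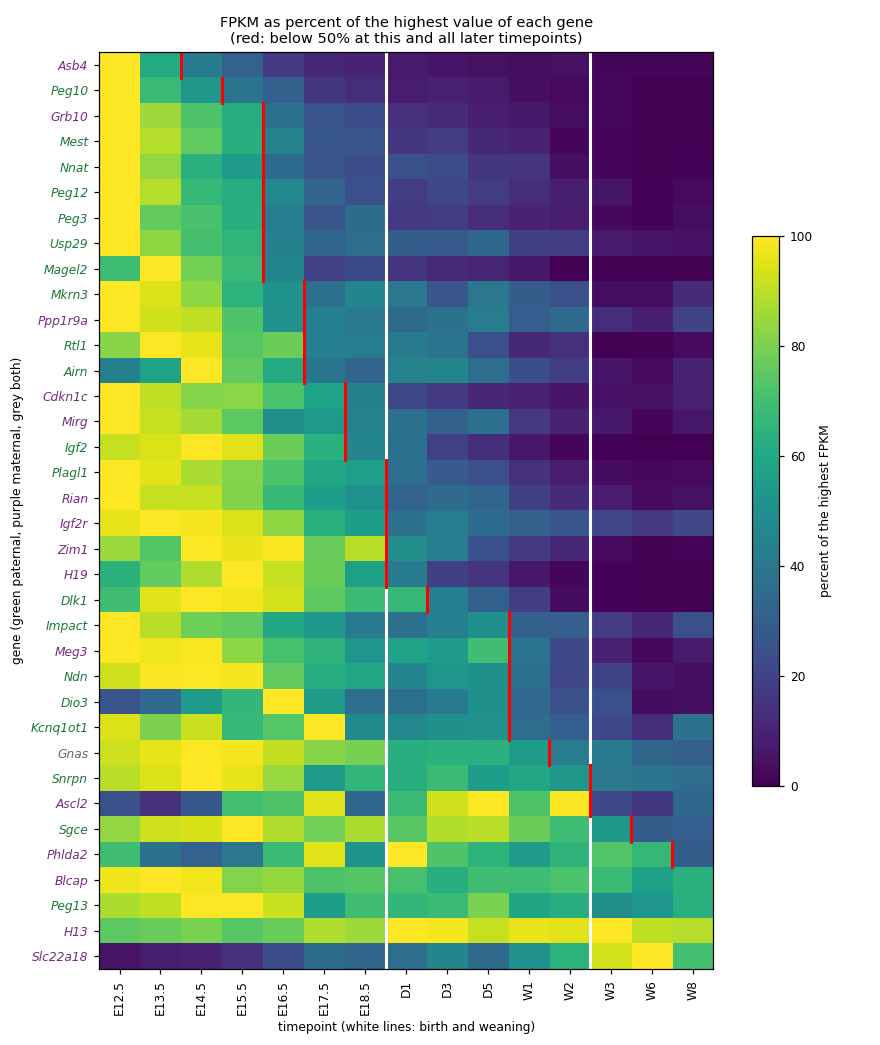
FPKM of each gene (rows) at each timepoint (columns) as percent of that gene's highest value, with white lines at birth and weaning and a red bar where a gene drops below 50% for good. Rows are ordered by that timepoint, from Asb4 (E14.5) to the 4 genes that never do so, and gene names are coloured by parental expression.

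Over the 5 timepoints from D1 to W2, no gene passed the test for a slope per doubling of age, among the 35 or among all genes (0%), although 17 of the 35 and 2434 of 16902 had an unadjusted p under 0.05 with limma. The slope was below 0 for 32 of the 35 and for 9989 of the 16902. H19 and Igf2 both had -1.18 ± 0.20 per doubling of age, and Dlk1 had -1.04 ± 0.23.

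The step with the most genes falling was from D5 to W1, with 33 of 36 lower, and in 19 of these the deposited confidence bounds, which cover counting error only, were apart. All genes tested were lower in 66.9% of cases at this step. From W1 to W2, 28 of the 36 were lower, against 43.2% of all genes. More genes fell with bounds apart from W2 to W3 and from W3 to W6 (23 each). From W6 to W8 most genes turned upward, imprinted or not. FPKM was higher at W8 for 25 of the 36, with bounds apart for 11 (Meg3, Rian, Mirg, Peg3, Cdkn1c, Kcnq1ot1, Igf2r, Ppp1r9a, Mkrn3, Impact and Peg13), while 63.4% of all genes were higher. From W3 to W6, 30 of the 36 were lower, against 83.5% of all genes. W6 was the lowest timepoint of 20 of the 36 genes. No share over all genes was computed for this count or for bounds apart.

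Among the paternally expressed genes, Igf2, the fetal growth factor acting through the type 1 IGF receptor, was the highest before birth. Its FPKM in the fetal transcriptomes was 493 at the lowest (E18.5), 986 at the median and 1081 at the highest (E14.5). After birth it was 405 at D1, 208 at D3, 143 at D5, 70.4 at W1 and 14.4 at W2, and then 6.24 at W3, 2.98 at W6 and 3.24 at W8. Each age group lay wholly below the one before it. The difference was -3.00 ± 0.59 (SE) from fetal to early postnatal (limma, adjusted p = 0.000925) and -4.42 ± 0.73 from early to late postnatal (adjusted p = 0.000564), and the fetal mean was 211 times the late mean. Igf2 lies at chr7:142650768-142666869.

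Dlk1, a transmembrane protein of the Notch ligand type that regulates growth and adipocyte formation, was nearly level from E18.5 to D1. In the fetal transcriptomes its summed FPKM was 371 at the lowest, 504 at the median and 540 at the highest, and at D1 it was still 361. It then went through 234 (D3), 167 (D5), 98.1 (W1) and 17.7 (W2) to 5.99 (W3), 2.24 (W6) and 2.17 (W8). The groups did not overlap, but D1 nearly touched the lowest fetal value. The early to late difference was -4.87 ± 0.67 (adjusted p = 0.000244), and the fetal to early difference was -1.92 ± 0.54 (adjusted p = 0.00767, and 0.0188 with median-ratio scaling). Of the other paternally expressed genes of this chromosome 12 domain, Rtl1 is a retrotransposon-derived gene of placenta and muscle. Its summed FPKM was at most 1.56, with 0.661 at E18.5 and 0.638 at D1. Rtl1 fell by 0.61 ± 0.13 from fetal to early postnatal timepoints (limma, adjusted p = 0.00152). Its chromosomal entry alone reached at most 0.782, so Rtl1 reached the FPKM of 1 needed for testing only through the sum of its entries. It was listed at 0 at W3. Dio3, the deiodinase that inactivates thyroid hormone, peaked at E16.5 with an FPKM of 3.74 and passed neither comparison (adjusted p = 0.253 and 0.0178).

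Mest, an enzyme-like protein of the alpha/beta hydrolase family, and Plagl1, a zinc-finger transcription factor known to act on other imprinted genes, were highest at E12.5. The FPKM of Mest was 293 at E12.5 and 77.0 at E18.5, then 45.9, 51.6, 33.7, 27.6 and 5.62 from D1 to W2, and 3.83, 0.955 and 1.04 from W3 to W8. The groups did not overlap, and Mest fell by 2.53 ± 0.50 and by 3.37 ± 0.62 (adjusted p = 0.00101 and 0.00102). Plagl1 went from 198 at E12.5 to 111 at E18.5, to 72.4, 56.5, 48.3, 27.9 and 15.9 in the early postnatal and 6.77, 4.19 and 4.96 in the late postnatal transcriptomes. It declined at each of the steps up to W6, and fell by 1.95 ± 0.30 (adjusted p = 0.000261) and by 2.68 ± 0.37 (adjusted p = 0.000263).

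Nnat, a membrane proteolipid of nervous and endocrine tissue, dropped over fetal life and again between W1 and W3. Its FPKM was 446 at E12.5, 244 at the fetal median and 106 at E18.5. Early postnatal values were 111 (D1), 104 (D3), 71.1 (D5), 66.6 (W1) and 18.49 (W2), and late values 8.17, 3.15 and 4.35. Fetal and early values overlapped at D1, and late values lay below all others. Nnat fell by 1.75 ± 0.46 (adjusted p = 0.00508, and 0.0116 with median-ratio scaling) and by 3.46 ± 0.57 (adjusted p = 0.000562).

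Peg3, a zinc-finger protein of the chromosome 7 domain it shares with Usp29 and Zim1, had an FPKM of 71.3 at E12.5, 44.7 at the fetal median and 19.02 at its fetal lowest (E17.5). It was between 5.73 and 12.3 in early postnatal and 1.56, 0.755 and 2.79 in late postnatal transcriptomes, with no overlap between groups. Peg3 fell by 2.01 ± 0.31 from fetal to early postnatal timepoints (limma, adjusted p = 0.000266) and by 1.94 ± 0.39 from early to late ones (adjusted p = 0.00154). Usp29, whose entry begins next to that of Peg3, stayed between 0.0304 and 0.630 FPKM and was also lowest after weaning.

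Peg10, a retrotransposon-derived gene needed for placenta formation, and its neighbour Sgce, epsilon-sarcoglycan, took different courses from adjacent starts on chromosome 6. Peg10 went from 30.8 at E12.5 to 4.04 at E18.5, 0.780 at W2 and 0.154 at W8. It fell by 2.16 ± 0.40 from fetal to early postnatal timepoints (adjusted p = 0.000692). Sgce ranged from 26.2 to 33.2 in fetal and from 22.9 to 29.8 in early postnatal transcriptomes, which overlapped. It then took values of 17.6, 9.76 and 9.95, a fall by 1.08 ± 0.16 (adjusted p = 0.000356). The Sgce difference across birth was -0.16 ± 0.13, and 0.12 with median-ratio scaling, past the threshold in neither.

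Of the 5 paternally expressed genes of the Prader-Willi domain on chromosome 7, Ndn, the MAGE-family growth suppressor necdin, was the highest. Its FPKM lay between 69.7 and 117 in the fetal, between 25.0 and 61.4 in the early postnatal, and at 23.4, 6.88 and 4.73 in the late transcriptomes, with no overlap. The fall across weaning was by 2.19 ± 0.39 (adjusted p = 0.000865), and the difference across birth, -1.06 ± 0.32, missed the threshold (adjusted p = 0.0108). Snrpn, a splicing protein mostly of neurons, ranged from 7.80 to 21.7 and passed neither comparison (adjusted p = 0.0137 and 0.0117). Peg12, a Frat-family gene of Wnt signalling, fell by 1.46 ± 0.28 across birth (adjusted p = 0.000802) from a fetal range of 3.28 to 13.496. Mkrn3, a makorin known for its part in the timing of puberty, had at most 3.79 FPKM and fell by 0.66 ± 0.17 and by 0.83 ± 0.21 (adjusted p = 0.00514 and 0.00606, and 0.0229 and 0.0108 with median-ratio scaling). Magel2, a MAGE-family gene, had at most 2.26, fell by 0.89 ± 0.19 across birth (adjusted p = 0.00139), and was listed at 0 at W2 and W3.

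The remaining paternally expressed genes were of low or moderate level. Airn, the antisense RNA that silences the paternal Igf2r, peaked at 40.1 at E14.5 and lay between 7.47 and 18.2 from D1 to W2 and between 1.22 and 3.96 after weaning. It fell by 2.07 ± 0.37 across weaning (adjusted p = 0.000796). Kcnq1ot1, the noncoding RNA that silences its domain on the paternal chromosome, had an FPKM of at most 1.01 and fell by 0.33 ± 0.09 across birth (adjusted p = 0.00755). With median-ratio scaling the latter was -0.21 (adjusted p = 0.0518). Impact, an inhibitor of the stress kinase GCN2, went from 16.1 at E12.5 to a lowest value of 1.72 and fell by 0.77 ± 0.20 and by 0.91 ± 0.26 (adjusted p = 0.00556 and 0.00932). With median-ratio scaling its differences were -0.51 and -0.48 and missed the threshold (adjusted p = 0.0247 and 0.0979). Peg13, a noncoding RNA, stayed between 4.18 and 8.47 and did not pass the test across the age groups (adjusted p = 0.0143).

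Among the maternally expressed genes, H19, the abundant noncoding RNA downstream of Igf2 at chr7:142575532-142578146, reached the highest level of all 36. Its FPKM in the fetal transcriptomes was 2189 at the lowest (E18.5), 2986 at the median and 3854 at the highest (E15.5), 0.472% of the FPKM of all genes. After birth it was 1590, 735, 598, 255 and 58.9 from D1 to W2, and then 30.3, 8.88 and 7.13. Each group lay below the one before. H19 fell by 2.89 ± 0.61 (adjusted p = 0.00146) and by 4.89 ± 0.76 (adjusted p = 0.000423), and the fetal mean was 197 times the late mean.

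Meg3, Rian and Mirg, the noncoding RNAs of the Dlk1-Dio3 domain, were highest at E12.5. Meg3 had a summed FPKM of 341 at E12.5, 282 at the fetal median and 177 at E18.5, and of 197, 187, 237, 131 and 75.5 from D1 to W2. The late values were 31.1, 7.18 and 24.4. Fetal and early postnatal values overlapped, and W6 was the lowest of all. The difference across birth was -0.80 ± 0.34 (adjusted p = 0.0522) and that across weaning -3.04 ± 0.42 (adjusted p = 0.000244). Rian, a host of small nucleolar RNAs, fell in both comparisons, by 1.61 ± 0.29 and by 2.20 ± 0.36 (adjusted p = 0.000546 and 0.000521), from a fetal range of 85.0 to 168 to 7.67 at W8. Mirg, a host of microRNAs, fell by 1.37 ± 0.30 and by 1.71 ± 0.38 (adjusted p = 0.00186 and 0.00251), from a fetal range of 10.7 to 24.2. For both, the 3 groups did not overlap.

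Cdkn1c, the cyclin-dependent kinase inhibitor p57, and Grb10, an adaptor that dampens insulin and IGF receptor signalling, were among the 4 largest falls across birth. The FPKM of Cdkn1c was 847 at E12.5, 692 at the fetal median and 374 at E18.5. It was 184, 145, 92.1, 78.8 and 47.3 from D1 to W2, and 40.1, 39.2 and 78.4 at W3, W6 and W8. The early values lay below all fetal ones, while early and late values overlapped because W8 was higher than W2. Cdkn1c fell by 2.64 ± 0.31 across birth (adjusted p = 9.19e-05). Its difference across weaning was -0.97 ± 0.39 and missed the threshold (adjusted p = 0.0479). Grb10 went from 355 at E12.5 to 81.7 at E18.5, to 49.5, 41.8, 30.2, 24.7 and 13.46 and then to 7.09, 2.49 and 2.55. Its groups did not overlap, and it fell by 2.59 ± 0.41 and by 2.70 ± 0.52 (adjusted p = 0.000312 and 0.00119).

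Igf2r, the receptor that removes IGF2 to the lysosome, ranged from 25.2 to 45.2 in fetal transcriptomes, was 17.0, 19.1, 15.7, 14.0 and 12.1 in the early postnatal and 9.53, 7.43 and 9.66 in the late ones. The groups did not overlap. Igf2r fell by 1.23 ± 0.16 across birth (adjusted p = 0.000122) and by 0.74 ± 0.20 across weaning (adjusted p = 0.00783). The latter was -0.21 with median-ratio scaling (adjusted p = 0.302). Zim1, the zinc-finger neighbour of Peg3, held 9.42 to 12.9 through fetal life. It then went through 6.36, 5.50, 3.23, 2.17 and 1.49 to 0.356, 0.0629 and 0.181, with no overlap, and fell by 1.497 ± 0.22 and by 1.87 ± 0.28 (adjusted p = 0.000226 and 0.000341).

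Asb4 and Ppp1r9a lie on the maternal side of the Peg10 domain. Asb4, an ankyrin-repeat protein with a SOCS box, had an FPKM of 9.86 at E12.5 and 0.949 at E18.5, a 10.4-fold span that exceeded that of the other 35 genes. It fell by 1.43 ± 0.35 across birth (adjusted p = 0.00378), with early values between 0.354 and 0.716, and late values at or below 0.175. Ppp1r9a, the actin-binding protein neurabin, ranged from 4.02 to 10.1, from 2.99 to 4.23 and from 0.876 to 2.01 in the 3 groups. Fetal and early values overlapped, and it fell by 0.75 ± 0.21 and by 0.96 ± 0.26 (adjusted p = 0.00743 and 0.0079). With median-ratio scaling neither passed (-0.50 and -0.61, adjusted p = 0.0346 and 0.0487).

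Slc22a18, a membrane transporter of the Kcnq1 domain, ran against most of the others. Its FPKM was 2.99 at E12.5, 8.17 at the fetal median and 20.5 at its fetal highest (E17.5). It was 21.1, 26.5, 20.1, 29.3 and 37.5 from D1 to W2, and 54.0, 58.1 and 40.7 from W3 to W8. All late values lay above all early ones, and D5 alone lay inside the fetal range. The fetal slope was 0.42 ± 0.04 per day (adjusted p = 0.000307). Slc22a18 rose by 1.46 ± 0.38 across birth (adjusted p = 0.00481, and 0.0136 without W1), and its difference of 0.92 ± 0.47 across weaning did not pass (adjusted p = 0.114). It lies at chr7:143473726-143499334, beside Cdkn1c at chr7:143458339-143461171. Kcnq1, the potassium channel gene of the same domain, which is also expressed in acid-secreting parietal cells, had mean FPKM of 3.58, 17.7 and 35.4 in the 3 age groups and rose by 2.28 ± 0.44 across birth (adjusted p = 0.000925).

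The other maternally expressed genes of this domain were low. Ascl2, a transcription factor of trophoblast and intestinal stem cells, had FPKM of 2.16 to 3.18 in the early postnatal and 0.513 to 1.07 in the late transcriptomes, with no overlap, and fell by 1.09 ± 0.28 (adjusted p = 0.00647, and 0.0297 with median-ratio scaling). Phlda2, a pleckstrin-homology protein that restrains placental growth, varied between 1.74 and 5.91 and did not differ across the age groups by the test (adjusted p = 0.378).

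Blcap, the host of Nnat, and H13, signal peptide peptidase, kept within narrow ranges. Blcap lay between 14.8 and 25.9 FPKM throughout, with all early values (16.3 to 18.6) just below the lowest fetal value of 18.7, and passed neither comparison in FPKM (adjusted p = 0.0147 and 0.404). H13 lay between 70.6 and 84.1 in the fetal, 87.1 and 95.6 in the early postnatal and 85.1 and 95.6 in the late transcriptomes. It rose by 0.28 ± 0.07 across birth (adjusted p = 0.00481), and no early value overlapped a fetal one. Across weaning the difference was -0.12 ± 0.12 for Blcap and -0.05 ± 0.09 for H13 in FPKM, while with median-ratio scaling both signs turned, to 0.43 (adjusted p = 0.00476) and 0.52 (adjusted p = 0.00338).

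Gnas, the complex locus of the stimulatory G protein alpha subunit, gives maternal, paternal and biallelic transcripts that the gene-level values do not separate. Its FPKM lay between 1124 and 1417 before birth. It was 889, 905, 901, 785 and 602 from D1 to W2, and 579, 478 and 426 from W3 to W8. The groups did not overlap, and Gnas fell by 0.68 ± 0.12 (adjusted p = 0.000493) and by 0.72 ± 0.15 (adjusted p = 0.0017). The fetal mean was 2.62 times the late mean, against 211 times for Igf2. With median-ratio scaling the difference across weaning was -0.14 (adjusted p = 0.37).

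Ratios between genes of 1 transcriptome are free of the scaling. H19 and Igf2, which share enhancers and are expressed from opposite parental copies, kept a ratio between 2.20 (W8) and 4.86 (W3), although the fetal mean exceeded the late mean 197-fold and 211-fold. The ratio rose from 2.50 at E12.5 to 4.44 at E18.5 with each fetal day. Dlk1 and Meg3, the corresponding pair on chromosome 12, did not move together. Their ratio was between 1.10 and 2.09 before birth, 1.83 at D1, 0.235 at W2 and 0.0889 at W8. The ratio of Igf2 to Igf2r stayed between 19.6 and 24.3 up to D1 and then ran through 10.9, 9.11, 5.02 and 1.19 to 0.336 at W8, so the receptor transcript exceeded that of its ligand from W3 on.

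Nnat and Blcap, which share a locus, had a ratio of 17.7 at E12.5, 0.995 at W2 and 0.263 at W8. The ratio of Peg10 to Sgce declined from 1.11 to 0.0155. The ratio of Igf2r to Airn was lowest at D1 (0.946) and highest at W6 (6.10). Airn overlaps Igf2r and Nnat lies inside Blcap, and whether the reads were counted by strand was not stated, so reads of these pairs may be shared.

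**Figure D4:**
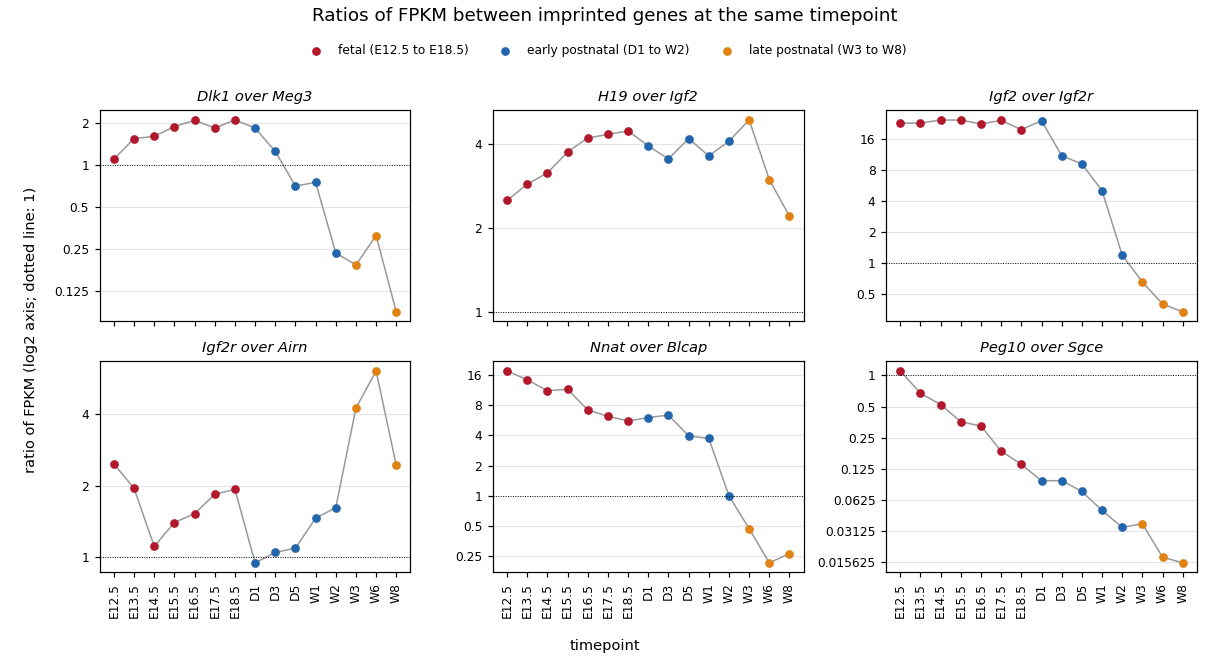
Ratio of the FPKM of 2 imprinted genes in the same transcriptome (log2 axis, dotted line at 1) at the 15 timepoints, coloured by age group, with 1 panel for each of 6 pairs. The ratio of H19 to Igf2 stays between 2.20 and 4.86, whereas the ratios of Dlk1 to Meg3, Igf2 to Igf2r, Nnat to Blcap and Peg10 to Sgce fall below 1 after birth or earlier.

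On log2(FPKM + 1), the course of Igf2 over the 15 timepoints was most closely followed among the imprinted genes by Plagl1 (Pearson r = 0.995), H19 (0.994) and Dlk1 (0.986). Among genes outside the list, Fhl3 (0.988), Nrk (0.988), Fbn2 (0.988), Maged2 (0.985) and Ccnd3 (0.985) were the closest. These coefficients describe 15 timepoints that share libraries and a common trend with age. Slc22a18 (-0.844) and H13 (-0.608) had negative coefficients.

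Partners of IGF signalling changed unevenly. Of 16 such genes, 8 fell and 3 rose across birth, against 30.6% and 10.8% of all genes, and 7 fell across weaning, against 28.9%. With median-ratio scaling 6 fell and 3 rose across birth and 3 fell across weaning. Of all 16902 genes, 2470 fell (14.6%) and 2966 rose across birth under this scaling, and 7.95% fell across weaning. The 3 rises among 16 genes were thus about as frequent as rises over all genes. The RNA-binding proteins Igf2bp1, Igf2bp2 and Igf2bp3, which bind Igf2 mRNA, fell by 2.34, 1.48 and 1.38 across birth (adjusted p = 0.000335, 0.000172 and 0.000802). The binding proteins Igfbp6 and Igfbp7 and the serum complex subunit Igfals rose by 2.30, 2.16 and 1.71 (adjusted p = 0.00029, 0.00891 and 0.000147). Igf1, the other IGF ligand, named after its values had been seen, fell by 1.29 across birth (adjusted p = 0.000137), from a fetal mean of 36.7 FPKM to an early postnatal mean of 14.9. Of 8 factors that maintain imprints 7 were tested. All 7 fell over fetal life (25% of all genes) and across birth (30.6%), and 4 fell across weaning (28.9%). With median-ratio scaling 7 fell over fetal life, 6 across birth and 1 across weaning, against 18.1%, 14.6% and 7.95% of all genes. Uhrf1, Zfp57 and Dnmt1 fell by 1.77, 1.54 and 1.41 across birth (adjusted p = 0.000198, 0.00147 and 0.00046). The mean FPKM of Zfp57 was 23.6, 7.04 and 0.771 in the 3 age groups.

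Of 30 further genes known to be imprinted, 25 were tested, of which 10 fell and 2 rose (Kcnq1 and Nap1l5) across birth, against 30.6% and 10.8% of all genes, and 11 fell across weaning, against 28.9%. With median-ratio scaling 5 fell and 2 rose across birth, and 2 fell and 2 rose across weaning, so most of the falls across weaning did not hold. Of all 16902 genes, 2470 fell (14.6%) and 2966 rose across birth under this scaling. Across weaning 1343 fell (7.95%) and 2055 rose. The 2 falls among 25 genes across weaning were thus about as frequent as falls over all genes. The largest falls across birth were those of the amino acid transporter Slc38a4 (-1.84), Copg2 (-1.42), which lies next to Mest on the opposite strand, and Begain (-1.24).

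These are whole-organ transcriptomes, in which fewer cells of a type and less RNA per cell cannot be told apart. The summed FPKM of 6 mesenchyme markers ranged from 1869 to 3426 in the fetal, from 1565 to 3986 in the early postnatal and from 253 to 1430 in the late transcriptomes. None of the 6 passed the test across birth, and 5 of the 6 fell across weaning. They were not alike over fetal life, where 1 fell and 2 rose (Col1a1 and Col1a2), against 25% and 14.3% of all genes. Pdgfra fell by 0.38 per day (limma, adjusted p = 0.000536), from an FPKM of 74.4 at E12.5 to 15.3 at E18.5. Its difference across birth was -1.09 (adjusted p = 0.0117). The sum of 6 cell division markers was 219 to 455, 78.0 to 153 and 44.6 to 87.1, and all 6 fell across birth and 2 across weaning. The sum of 6 enteric neuron and glia markers was 57.3 to 144, 37.1 to 60.6 and 10.8 to 19.2, with 4 lower and 1 higher across birth and all 6 lower across weaning. The sum of 4 endothelium markers was 52.7 to 82.2, 36.8 to 68.9 and 14.3 to 27.3, with 2 lower across birth and 3 across weaning. Smooth muscle (1256 to 6638, 4278 to 10483 and 2083 to 7771), epithelium (493 to 2639, 1963 to 3913 and 3947 to 5684) and gastric gland markers held no gene that fell across birth by the test, and of these 3 lists only Acta2, of smooth muscle, fell across weaning. Over all genes 30.6% fell across birth and 28.9% across weaning, and with median-ratio scaling 14.6% and 7.95%. With median-ratio scaling all 6 cell division markers, 3 enteric markers, 0 mesenchyme and 0 endothelium markers fell across birth, and 0 cell division, 3 enteric, 4 mesenchyme, 2 endothelium and 0 smooth muscle markers fell across weaning. The part of these cell types in the decline of the imprinted genes was not tested.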

How the data were processed

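RNA of whole mouse stomachs was sequenced at 15 timepoints. The deposited FPKM values, made by the authors, come as 1 table of gene entries with confidence bounds per timepoint. According to the study's methods, the authors selected RNA with oligo beads, filtered reads with FastQC, mapped them to GRCm38.p2 with HISAT2 and quantified them with StringTie and GENCODE. The submitters' processing notes name Bowtie 0.12.2 and FastQC instead, and the tables have the layout of Cufflinks with RefSeq-type entries, so the sources differ. Use of strand was not stated.

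Entries of a symbol were summed. Genes that reached an FPKM of 1 at any timepoint were tested on log2(FPKM + 1), a scale that understates changes of low genes, with limma 3.58.1 in R 4.3.3: an F test across the 3 age groups, 2 contrasts, and slopes over fetal days and over doublings of age from D1 to W2. P-values were adjusted over all genes by Benjamini-Hochberg with a threshold of 0.01. The study's own phases, one set drawn from these transcriptomes and the other from its proteomes, were used as alternatives to the age labels. The fit was tested on simulated data. Groups of variance 0 were offset by limma. Tables were made with Python 3.11.15 and pandas 2.3.3. Coordinates are those of the files, GRCm38, counted from 1.

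All 36 genes were named, in the order of parental expression and locus, and of the other lists up to 3 genes each way with the largest difference among those past the threshold. The rule for the 36 genes uses no measured value, but these genes and the other lists were chosen with earlier results of these data known. Confidence bounds cover counting error only. The alternatives tried were pseudocount, filter, scaling, entry choice, variance trend, grouping, an untransformed test and leaving out each timepoint.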

Additional observations from a re-analysis of the deposited data

Results flagged for a closer look

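Of 70 groups of timepoints (35 genes in the fetal and the early postnatal group), 1 held a value far from the others by Dixon's test at the 95% level, against about 1 in 20 by chance. It was Nnat at W2, with an FPKM of 18.49 as the lowest of the 5 early postnatal values. On log2(FPKM + 1), its gap to the next value (FPKM of 66.6, at W1) took 0.711 of the group's range. The critical value was 0.71. On untransformed FPKM the gap took a smaller part of the range, below that value.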

How the results depend on the processing

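Under the alternatives tried, the 33 genes that differed across the 3 age groups became 29 to 34, and the 25 that differed between fetal and early postnatal timepoints became 20 to 27 when no timepoint was left out. The 21 that differed between early and late postnatal timepoints became 14 (quantile normalization) to 26 (protein phases of the study), and the 19 with a fetal slope 17 to 21. Leaving out 1 timepoint gave 30 to 34, 16 to 28, 12 to 23 and 16 to 19 genes, with the lowest counts across birth (16) without W1 and across weaning (12) without W6. Over all genes, the 5312 called between early and late postnatal timepoints became 1547 without W6. The slope from D1 to W2 gave 0 throughout. Of 1367 refitted values for the 65 calls of single genes, none changed sign and 166 lost the threshold. The cause of these changes was not tested. No paired analysis was possible because the replicate numbers only name timepoints within a group. With 1 transcriptome per timepoint and depth not stated, variation between animals could not be measured, and values under about 0.2 FPKM, such as those of Magel2, Rtl1 and Usp29 after weaning, rest on few fragments.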
